A study of Rattus norvegicus with 14 samples.

Results

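The 32 listed genes of cholesterol synthesis and sterol regulation were followed in cultured rat aortic smooth muscle cells by RNA-seq. The list was made by gene symbol and pathway role, with earlier results of these data known. The shares of members called, set beside those of all genes, are therefore descriptions only. A row was found for 31 of the 32 symbols among 17312 genes, and all 31 were among the 10133 genes that reached a normalised FPKM of 1 in 2 or more of the 14 libraries and were tested. The symbol Scd had no row. The members comprised 8 genes of the mevalonate steps, 12 genes of the sterol steps, 5 genes of sterol sensing and control, 5 genes of sterol transport and export, and the fatty acid synthase gene Fasn.

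The cells were commercially supplied and cultured, and every group was kept without serum for 24 h before any treatment. The unstimulated group (0 h) had 2 libraries. The other 4 groups had 3 libraries each and all received platelet-derived growth factor (PDGF, a mitogen for smooth muscle cells) at 925 ng/ml, for 2 h or 24 h. In 2 of these groups the cells were first given JQ1 at 500 nM for 3 h, an inhibitor of BET bromodomains, which read acetylated histones. Unstimulated cells at 2 h or 24 h and cells with JQ1 alone were not analysed here, so PDGF and time in culture cannot be told apart in the comparisons with 0 h. Nothing in the labels says that the libraries of a group came from separate cultures, so the p-values measure the spread between samples alone, and that spread may be technical. The sample titles carry letters that differ between samples with and without JQ1, and whatever they mark cannot be told apart from JQ1.

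Cholesterol is made in the endoplasmic reticulum from acetyl-CoA. The mevalonate steps build isoprenoid units that also serve protein prenylation, and the sterol steps close squalene into lanosterol and convert lanosterol to cholesterol. When membrane sterol is low, SCAP carries the SREBP transcription factors (from Srebf1 and Srebf2) to the Golgi for cleavage, and the cleaved factors raise transcription of the synthesis genes. INSIG proteins hold SCAP in the endoplasmic reticulum when sterol is plentiful, and Insig1 is itself an SREBP target. Excess sterol leaves through the transporters ABCA1 and ABCG1, whose genes the oxysterol receptors LXR activate. In the artery wall, smooth muscle cells that store cholesterol are known to take on features of foam cells.

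Expression is given as FPKM, in which fragments are divided by transcript length and by library size, and the read number behind a value is unknown. Between 9901 and 11503 genes were above 0 in a library. The main scale is the authors' normalised FPKM, on which the median gene moved: the median log2 difference over all tested genes against unstimulated cells was 0.01 after PDGF at 2 h and 0.41 at 24 h, and that of JQ1 against PDGF alone was -0.29 at 2 h and -0.48 at 24 h. The ERCC spike-in RNA, added in proportion to cell number, made up 1.65 to 2.78% of the unnormalised FPKM. Its share was 2.53 to 2.78% in unstimulated cells. With PDGF it was 1.82 to 2.28% at 2 h and 1.65 to 1.88% at 24 h. With JQ1 plus PDGF it was 2.33 to 2.48% at 2 h and 2.20 to 2.59% at 24 h. Whether the shift of the median gene reflects RNA per cell was not tested, and median centring would remove such a change. A second, median-centred scale (unnormalised FPKM over a size factor) lacks this shift, and changes that passed on both scales are given first. Differences are log2(value + 1) ± SE of a limma fit with Benjamini-Hochberg adjusted p, called under 0.05, and this scale understates the change of low genes. In bulk RNA, fewer cells of a type and less RNA per cell cannot be told apart. The labelled cell type showed its contractile markers: 6 smooth muscle genes (Acta2, Tagln, Cnn1, Myh11, Lmod1 and Smtn) summed to 10013 to 10411 unnormalised FPKM in unstimulated cells, 10853 to 11492 with PDGF at 2 h and 1263 to 1508 at 24 h, and to 16675 to 16991 and 385 to 450 with JQ1 at the same times. Acta2 and Tagln carry most of this sum (means of 5251 and 4045 normalised FPKM in unstimulated cells, against 5.37 for Myh11). The higher sum with JQ1 at 2 h was not shared by all 6 genes. Tested against PDGF alone on the normalised scale, 1 was higher and 2 were lower (7.24% and 34% of all genes). Of the markers of other cells, 5 endothelial genes summed to at most 0.53, 4 adipocyte genes to at most 0.431 and 4 hepatocyte genes to at most 2.97. The sums of 5 leukocyte genes were higher, at 13.8 and 17.7 in unstimulated cells and 36.9 to 53.1 with PDGF at 24 h. Cd14 carried most of these sums, with means of 14.7 and 57.9 normalised FPKM in the same groups. Of the other leukocyte genes, Cd68 was the highest in these groups, with means of 0.924 and 0.633.

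Unstimulated cells expressed the whole pathway at levels spread over more than 2 orders of magnitude. Fdps, which encodes farnesyl diphosphate synthase, was the most abundant member at 445 and 476 normalised FPKM. It was followed by Npc2, a lysosomal cholesterol carrier, at 265 and 282 and by Msmo1, a sterol methyl oxidase, at 237 and 279.6, whose ranges overlapped. Hmgcs1 (HMG-CoA synthase) at 152 and 153 and Cyp51 (lanosterol demethylase) at 138 and 151 came next, and their ranges did not overlap. Fdps, Msmo1, Hmgcs1 and Cyp51 held 20.8, 11.7, 6.9 and 6.53% of the summed level of the 31 members. At the low end, Ggps1, the branch enzyme toward geranylgeranyl groups, stood at 4.65 and 6.55 and Abcg1 at 0.969 and 0.874. Abcg1 reached the filter of 1 only in the PDGF 24 h libraries and in PDGF 2 h replicate 1, so its values are given without tests and counts at 24 h are also given for the other 30 members. Among the control genes, Insig1 (76.4 and 86.5) was the highest, above Srebf2 (30.5 and 34.6), Srebf1 (21.1 and 24.8), Scap (17.8 and 18.2) and Insig2 (14.8 and 13.7).

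**Figure D1:**
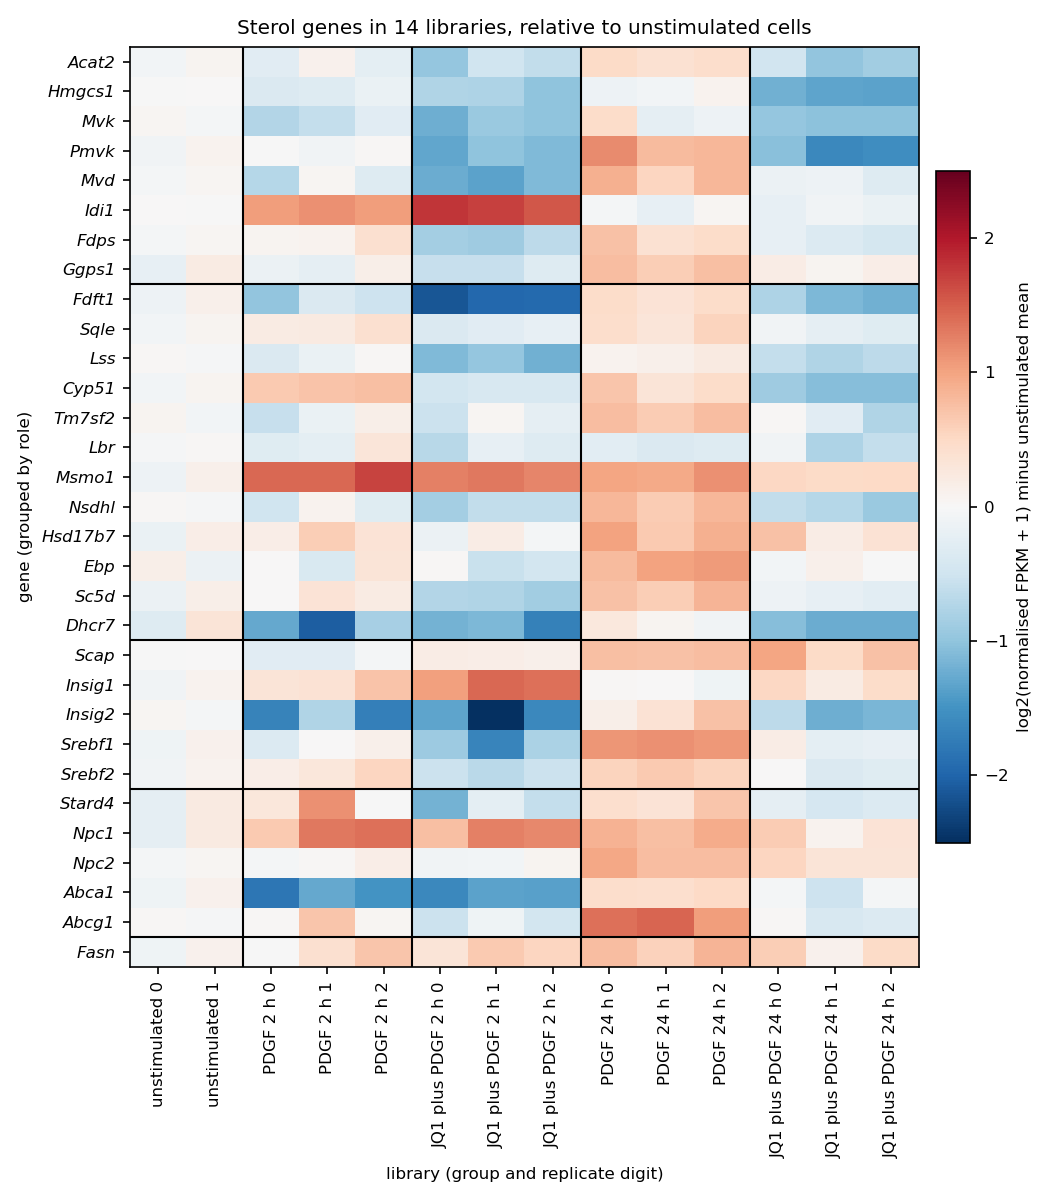
Each row is a sterol gene and each column a library. Colour gives log2(normalised FPKM + 1) minus the mean of the 2 unstimulated libraries, and horizontal lines separate the mevalonate steps, sterol steps, control genes, transport genes and Fasn. Idi1, Msmo1 and Insig1 are red in all libraries with PDGF at 2 h, with or without JQ1, while Fdft1, Dhcr7, Insig2 and Abca1 are blue there.

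After 2 h of PDGF, members were called in both directions. Idi1, Msmo1, Cyp51, Insig1 and Npc1 rose and Mvk, Fdft1, Dhcr7, Insig2 and Abca1 fell, while 21 members did not pass. All of these calls held on the median-centred scale, where 7 members were higher and 6 lower (20.4% and 19.4% of all genes). On the normalised scale they make up 16.1% of the members in each direction, against 17.7% of all tested genes higher and 12.7% lower, so the count itself is near the background. The median member difference was -0.01 and the median of all genes 0.01.

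Msmo1 showed the largest rise. It went from 237 and 279.6 to 701, 697 and 837 normalised FPKM, a difference of 1.52 ± 0.12 (limma, adjusted p = 1.18e-07). Idi1, the isomerase that interconverts the isoprenoid building blocks, went from 60.4 and 59.3 to 124, 133 and 125 (1.08 ± 0.11, limma, adjusted p = 3.21e-06). The 3 stimulated libraries of either gene lay far above both controls. Cyp51 went from 138 and 151 to 229, 236 and 243 (0.71 ± 0.12, limma, adjusted p = 0.000308). Earlier in the sterol steps, Sqle, squalene epoxidase, differed by 0.27 ± 0.12 without passing, and Fdft1, squalene synthase, fell from 59.1 and 71.6 to 32.2, 50.3 and 44.9 (-0.63 ± 0.18, limma, adjusted p = 0.0147). Dhcr7, which reduces the last sterol precursor to cholesterol, fell from 10.6 and 16.9 to 4.95, 2.47 and 7.07 (-1.39 ± 0.30, limma, adjusted p = 0.0029). The calls of Fdft1 and Dhcr7 were lost without unstimulated replicate 1 (-0.49, adjusted p = 0.146, and -1.07, adjusted p = 0.0592). Mvk, mevalonate kinase, fell by 0.54 ± 0.19 (limma, adjusted p = 0.0443), a call that leaving out any of 9 libraries ended (adjusted p 0.0504 to 0.224).

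The paralogs Insig1 and Insig2 moved apart. Insig1 went from 76.4 and 86.5 to 102, 104 and 135 normalised FPKM (0.47 ± 0.15, limma, adjusted p = 0.0318). Insig2 went from 14.8 and 13.7 to 3.8, 8.05 and 3.68 (-1.38 ± 0.44, limma, adjusted p = 0.0262). Neither gene's groups overlapped. The Insig1 call was lost without unstimulated replicate 0, unstimulated replicate 1 or PDGF 2 h replicate 2 (adjusted p 0.0647 to 0.225), and the Insig2 call without either unstimulated library or without PDGF 2 h replicate 0 or 2 (adjusted p 0.0702 to 0.135). The transporter gene Abca1, which exports cholesterol to lipid-poor apolipoprotein, fell furthest of all members, from 7.2 and 8.62 to 1.54, 2.66 and 2.14 (-1.53 ± 0.22, limma, adjusted p = 9.14e-05). Npc1, which moves cholesterol out of lysosomes, rose from 14.9 and 20.6 to 28.1, 45.0 and 47.0 (1.11 ± 0.23, limma, adjusted p = 0.00188). Srebf1 (-0.07 ± 0.23), Srebf2 (0.33 ± 0.15) and Scap (-0.21 ± 0.15) did not pass.

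**Figure D2:**
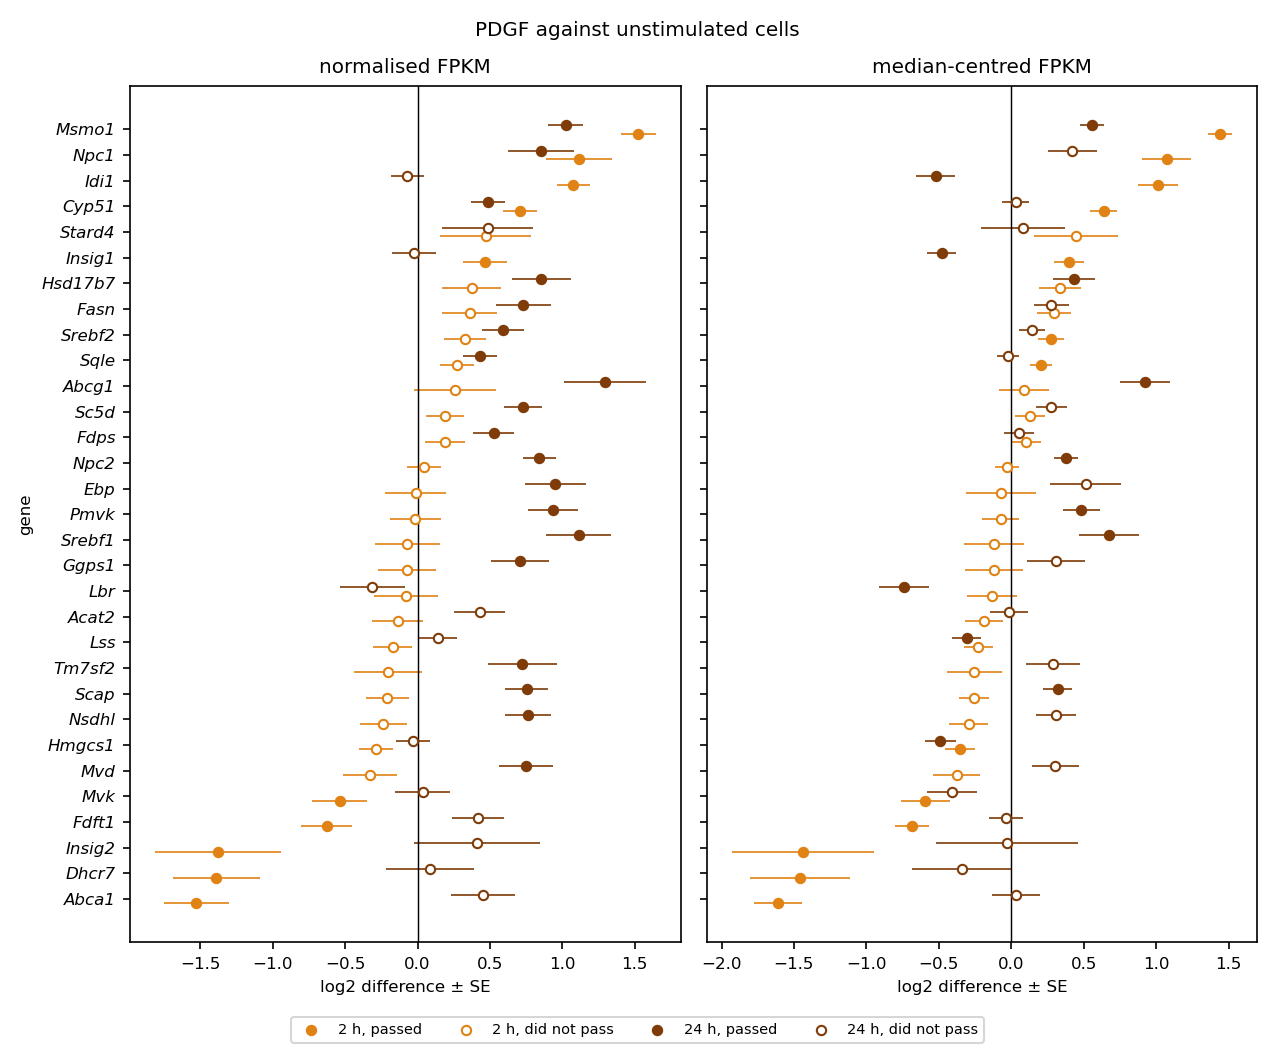
Log2 differences from unstimulated cells with SE for the 31 genes, after PDGF for 2 h (light) and 24 h (dark). Filled points passed the test at an adjusted p under 0.05. The left panel uses normalised FPKM and the right panel median-centred FPKM. The 2 h points keep their place between the panels, whereas the 24 h points sit lower on the right.

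The promoters of Idi1, Insig1, Msmo1 and Cyp51, whose transcripts rose at 2 h, and of Fdps, the most abundant member in unstimulated cells, are shown because SREBP target promoters are known to pair a sterol regulatory element with an NF-Y box. Each run is the 250 bases before the annotated start, 5′ to 3′ on the gene's strand, from RefSeq on GRCr8. The windows are Idi1 at chr17:66547525-66547774 (minus strand), Insig1 at chr4:8057770-8058019 (minus), Msmo1 at chr16:29746863-29747112 (plus), Fdps at chr2:176804817-176805066 (minus) and Cyp51 at chr4:30991443-30991692 (plus). Capitals mark CCAAT or its reverse complement ATTGG (NF-Y box) and CACGTG (E box).
Idi1: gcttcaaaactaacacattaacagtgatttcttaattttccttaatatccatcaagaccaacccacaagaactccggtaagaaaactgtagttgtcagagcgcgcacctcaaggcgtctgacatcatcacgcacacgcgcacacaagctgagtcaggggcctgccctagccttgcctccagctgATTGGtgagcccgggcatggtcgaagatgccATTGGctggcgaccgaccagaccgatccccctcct
Insig1: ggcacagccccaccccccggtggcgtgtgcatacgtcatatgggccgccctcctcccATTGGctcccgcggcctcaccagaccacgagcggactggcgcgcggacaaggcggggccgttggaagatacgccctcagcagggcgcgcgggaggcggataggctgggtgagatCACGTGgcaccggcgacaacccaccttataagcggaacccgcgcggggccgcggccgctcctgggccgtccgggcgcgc
Msmo1: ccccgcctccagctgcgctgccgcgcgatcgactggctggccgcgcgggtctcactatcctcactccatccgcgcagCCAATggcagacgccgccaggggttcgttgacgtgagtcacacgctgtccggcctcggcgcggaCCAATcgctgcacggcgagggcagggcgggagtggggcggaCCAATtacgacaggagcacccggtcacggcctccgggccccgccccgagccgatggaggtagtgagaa
Fdps: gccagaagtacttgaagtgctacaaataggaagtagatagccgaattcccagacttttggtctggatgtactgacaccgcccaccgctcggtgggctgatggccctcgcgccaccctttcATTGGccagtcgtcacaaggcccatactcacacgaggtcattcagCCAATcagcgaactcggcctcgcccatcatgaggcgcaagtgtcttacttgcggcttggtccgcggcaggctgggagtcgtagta
Cyp51: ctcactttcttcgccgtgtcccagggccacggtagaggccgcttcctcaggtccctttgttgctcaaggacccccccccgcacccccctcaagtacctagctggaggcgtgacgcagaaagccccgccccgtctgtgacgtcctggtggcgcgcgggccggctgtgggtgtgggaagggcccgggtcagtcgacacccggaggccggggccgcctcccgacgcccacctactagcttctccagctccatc

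Idi1 carried 2 reversed NF-Y boxes, whose first bases lay 66 and 35 bases before the start. Insig1 carried 1 reversed NF-Y box at 193 bases and an E box at 79 bases before the start. Msmo1 carried 3 forward NF-Y boxes at 173, 109 and 68 bases, Fdps had a reversed box at 130 and a forward box at 85 bases, and Cyp51 had no match. A promoter window of 300 bases (250 before and 50 after the start) was available for 25 of the 31 members. CCAAT on either strand was found in 19 of the 25 (76%), against 37.49% of all 33469 windows and 37.96% of the 21851 windows of protein-coding genes. Npc1, which also rose at 2 h and is not printed, had 0. Among the genes that fell at 2 h, Mvk had 5, Insig2 had 1, Dhcr7 and Abca1 had 0, and Fdft1 had no window. CACGTG, which reads the same on both strands, was found in 4 of 25 (16%, in Sc5d, Scap, Insig1 and Abca1) against 6.418% of all windows. The sterol regulatory element core searched, TCACNCCAC on either strand, was in 0 of 25 and in 1.117% of all windows. With a share that low, 0 in 25 windows cannot show that these promoters lack such elements. These matches are descriptions of the letters and no test of binding, and no motif overlapped another kind in the sequences printed.

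By 24 h of PDGF, 19 of 31 members (61.3%) were higher than in unstimulated cells and 0 were lower, against 37.7% and 4.85% of all tested genes (21 members had an unadjusted p under 0.05, and 18 of the 30 members other than Abcg1 were higher). The median member difference was 0.59 and that of all genes 0.41. On the median-centred scale 7 were higher (14.8% of all genes; 6 without Abcg1) and 5 lower (13.4% of all genes). Pmvk, Msmo1, Hsd17b7, Scap, Srebf1 and Npc2 rose on both scales. Hmgcs1, Idi1, Lss, Lbr and Insig1 fell on the median-centred scale only, by 0.31 to 0.74, and none of them passed on the normalised scale. Leaving out unstimulated replicate 0 reduced the 19 calls to 9.

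The members that rose on both scales came from different roles. Srebf1, which encodes an SREBP that also drives fatty acid genes, went from 21.1 and 24.8 to 50.2, 51.9 and 49.9 normalised FPKM (1.11 ± 0.23, limma, adjusted p = 0.00118). Scap went from 17.8 and 18.2 to 31.0, 30.6 and 31.5 (0.75 ± 0.15, limma, adjusted p = 0.00104), with the libraries of either group within 1 FPKM of each other. Pmvk, phosphomevalonate kinase, went from 53.6 and 61.5 to 132, 100.1 and 103 (0.94 ± 0.17, limma, adjusted p = 0.000594). Msmo1, at 509, 495 and 572, remained above its unstimulated values (1.02 ± 0.12, limma, adjusted p = 1.07e-05). Npc2 went from 265 and 282 to 537, 468 and 469 (0.84 ± 0.12, limma, adjusted p = 5.1e-05). For Hsd17b7, a sterol ketoreductase, values rose from 9.75 and 12.6 to 23.4, 18.2 and 21.4 (0.86 ± 0.20), and the call was lost without unstimulated replicate 0 (0.68, adjusted p = 0.0659). Srebf2, Cyp51, Fdps, Sqle, Mvd, Ggps1, Fasn and Npc1 also rose on the normalised scale, but each lost its call without that same control library (adjusted p 0.0546 to 0.159).

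Between 2 h and 24 h of PDGF, Idi1, Msmo1 and Insig1 fell, while Abca1, Insig2, Dhcr7 and Fdft1 rose. Of 31 members, 20 (64.5%) were higher at 24 h and 3 (9.68%) lower, against 44.5% and 11.8% of all genes, and on the median-centred scale 13 were higher and 7 lower (26.6% and 25.8% of all genes). Without Abcg1, 19 of 30 were higher on the normalised scale and 12 on the median-centred scale. The 3 genes lower on both scales, Idi1, Msmo1 and Insig1, were among those that had risen at 2 h. Idi1 was at 57.8, 51.9 and 61.7 normalised FPKM at 24 h, against 124 to 133 at 2 h (-1.15 ± 0.10, limma, adjusted p = 3.76e-07). Insig1 was at 82.8, 81.4 and 75.5, against 102 to 135 (-0.49 ± 0.14, limma, adjusted p = 0.0067), and Msmo1 at 509, 495 and 572, against 697 to 837 (-0.50 ± 0.11, limma, adjusted p = 0.00114). Idi1 and Insig1 at 24 h overlapped the unstimulated values, and Msmo1 stayed above them.

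In the other direction, Abca1 was at 11.0, 10.9 and 11.5 normalised FPKM at 24 h, against 1.54 to 2.66 at 2 h (1.98 ± 0.20, limma, adjusted p = 1.42e-06). Insig2 was at 15.9, 18.6 and 24.3, against 3.68 to 8.05 (1.79 ± 0.39, limma, adjusted p = 0.00123), and Dhcr7 at 16.3, 14.1 and 12.6, against 2.47 to 7.07 (1.47 ± 0.27, limma, adjusted p = 0.000333). Each of these 3 genes thus fell at 2 h and was within or above its unstimulated range at 24 h. Fdft1 (1.04 ± 0.16), Mvd (1.08 ± 0.17), Nsdhl (0.999 ± 0.144), Ebp (0.96 ± 0.19), Tm7sf2 (0.93 ± 0.21), Pmvk (0.95 ± 0.16), Scap (0.96 ± 0.13), Srebf1 (1.19 ± 0.20) and Npc2 (0.79 ± 0.10) were higher on both scales as well. The comparisons at 2 h and with 2 h share the PDGF 2 h libraries, so their opposite signs are not independent.

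**Figure D3:**
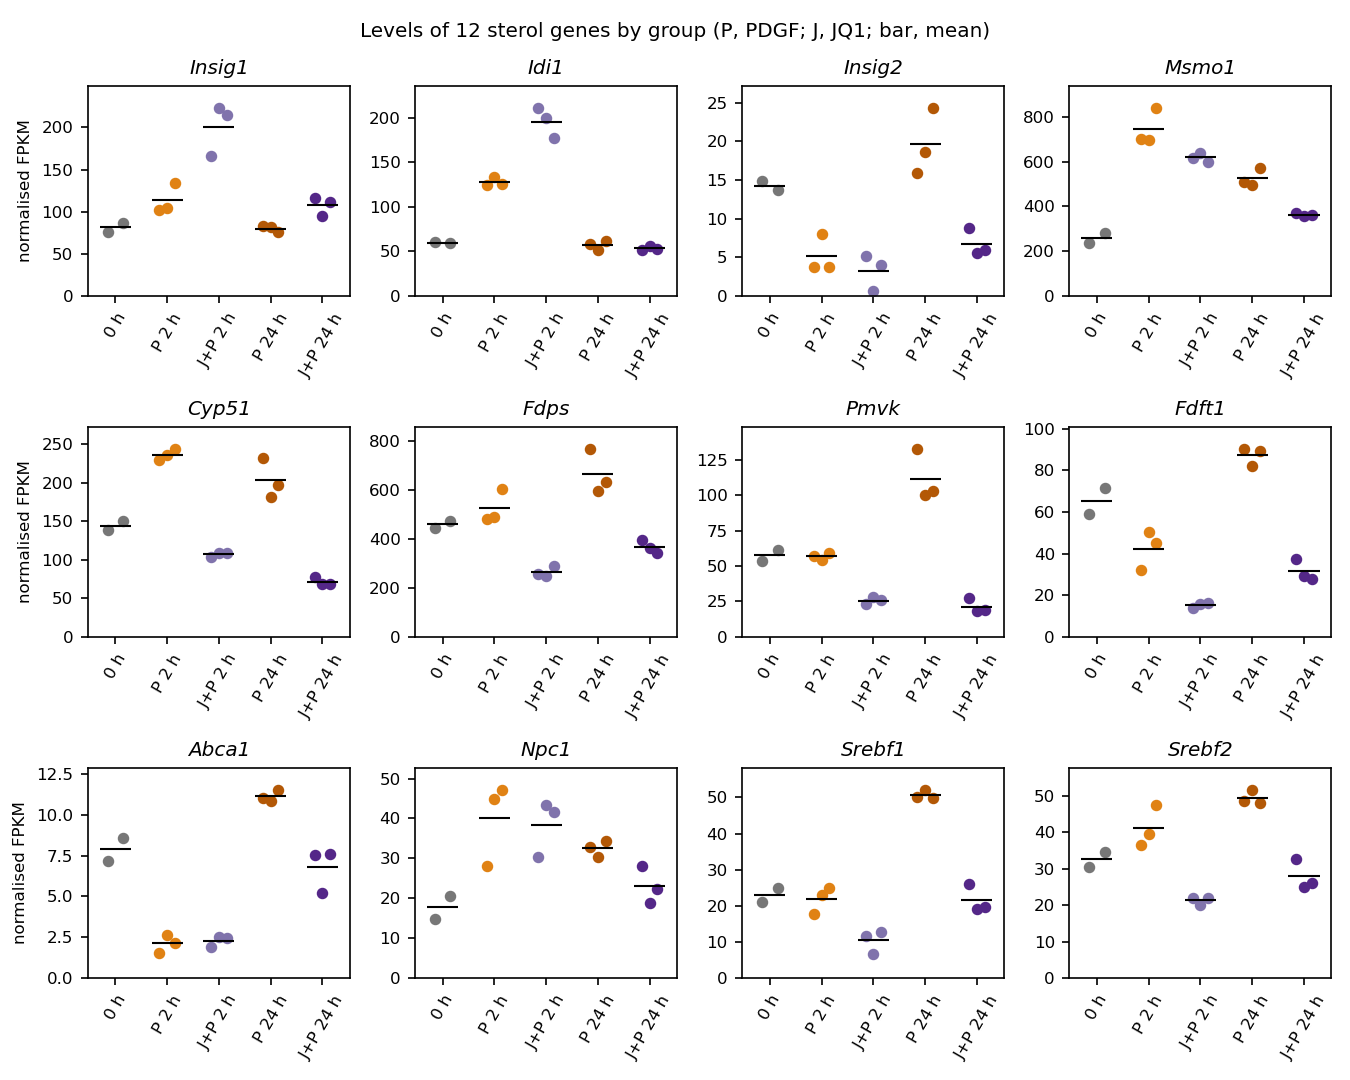
Normalised FPKM of 12 sterol genes in every library, in unstimulated cells (0 h), with PDGF (P) and with JQ1 and PDGF (J+P). Points are libraries, bars are group means, and each axis starts at 0. Insig1 and Idi1 are highest with JQ1 and PDGF at 2 h, where Fdps, Fdft1 and Srebf2 are at their lowest.

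With JQ1 before 2 h of PDGF, more of the pathway genes were lower than higher against PDGF alone. Of 31 members, 15 (48.4%) were lower and 3 (9.68%) higher, against 34% and 7.24% of all genes. On the median-centred scale 11 were lower and 5 higher (21.5% and 20.1% of all genes), and the 11 were also among the 15. The median member difference was -0.51 and that of all genes -0.29. The 11 genes lower on both scales were Pmvk, Mvd and Fdps of the mevalonate steps, Fdft1, Sqle, Lss, Cyp51 and Sc5d of the sterol steps, both SREBP genes, and Stard4, a sterol carrier.

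Fdft1 fell furthest, from 32.2, 50.3 and 44.9 with PDGF alone to 14.01, 16.0 and 16.1 normalised FPKM (-1.39 ± 0.16, limma, adjusted p = 9.54e-06). Cyp51 went from 229, 236 and 243 to 104, 109 and 109 (-1.13 ± 0.10, limma, adjusted p = 1.54e-06), below both unstimulated libraries. Fdps went from 484, 492 and 604 to 256, 248 and 290.3 (-0.98 ± 0.12, limma, adjusted p = 2.14e-05). Pmvk went from 57.4, 54.3 and 59.0 to 22.9, 28.0 and 26.0 (-1.12 ± 0.16, limma, adjusted p = 5.05e-05). In these genes every library with JQ1 lay below every library without it. Srebf2, which encodes the SREBP most tied to cholesterol genes, went from 36.6, 39.6 and 47.6 to 22.0, 20.1 and 22.1 (-0.91 ± 0.13, limma, adjusted p = 7.34e-05). Srebf1 went from 17.8, 23.0 and 24.9 to 11.6, 6.62 and 12.8 (-1.04 ± 0.20, limma, adjusted p = 0.000779). Lss (-0.92 ± 0.12), Sc5d (-0.97 ± 0.12), Mvd (-0.90 ± 0.17) and Stard4 (-1.14 ± 0.28) fell by similar amounts and Sqle by less (-0.55 ± 0.11).

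Idi1 and Insig1 went the other way. Idi1, already higher with PDGF at 2 h than in unstimulated cells, went from 124, 133 and 125 to 210.4, 199 and 177 normalised FPKM (0.61 ± 0.10, limma, adjusted p = 0.00024). Insig1 went from 102, 104 and 135 to 166, 223 and 214 (0.82 ± 0.14, limma, adjusted p = 0.000269). The JQ1 libraries of both genes lay above all other libraries of the study. With median centring the differences were 0.95 for Idi1 and 1.16 for Insig1. Scap was higher by 0.36 ± 0.13 (limma, adjusted p = 0.04), a call that leaving out any of 10 libraries ended (adjusted p 0.0516 to 0.0988), although it passed on the median-centred scale (0.68). Insig2 was at 5.11, 0.651 and 4.01 with JQ1, against 3.8, 8.05 and 3.68, and the groups overlapped (-0.67 ± 0.39, limma, adjusted p = 0.184). Msmo1, whose rise at 2 h was the largest, did not pass (616, 641 and 599 against 697 to 837, -0.26 ± 0.11, limma, adjusted p = 0.0633), and Npc1 (-0.04 ± 0.20) and Abca1 (0.09 ± 0.20) likewise did not pass.

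**Figure D4:**
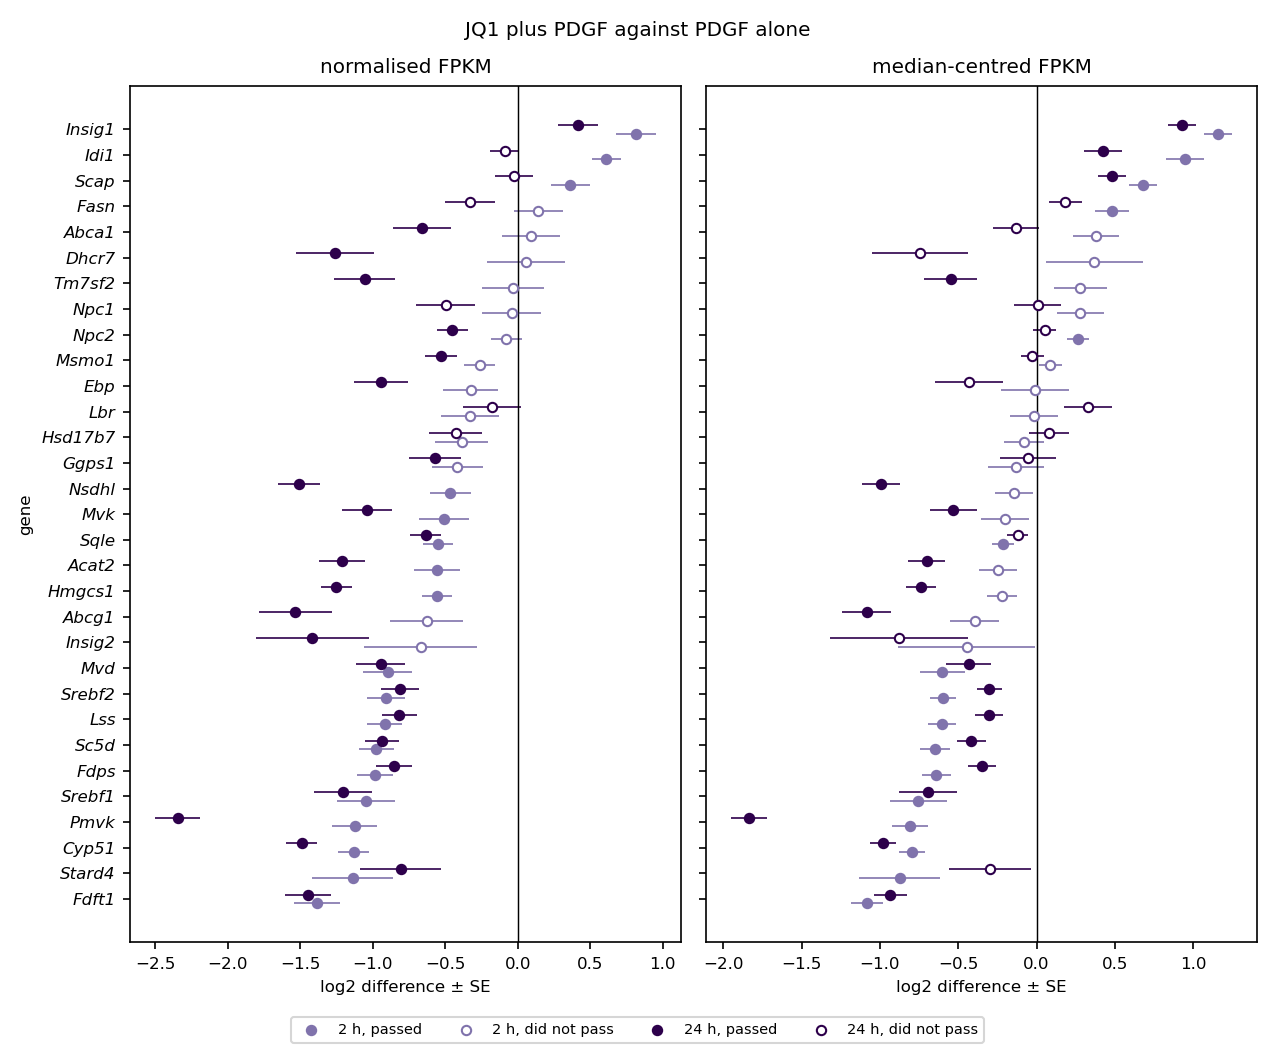
Log2 differences between JQ1 plus PDGF and PDGF alone with SE for the 31 genes, at 2 h (light) and 24 h (dark). Filled points passed at an adjusted p under 0.05, on normalised FPKM (left) and median-centred FPKM (right). Insig1 is the only gene that passed as higher at both times on both scales, and Pmvk at 24 h lies furthest to the left.

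At 24 h, 24 of 31 members (77.4%) were lower with JQ1 plus PDGF than with PDGF alone and 1 (3.23%) was higher, against 48.5% and 4.61% of all genes. With median centring 15 were lower and 3 higher (25.8% and 23.1% of all genes). Without Abcg1, 23 of 30 were lower on the normalised scale and 14 with median centring. The median member difference was -0.85 and that of all genes -0.48. Of the 20 synthesis genes, 17 fell, 7 of 8 in the mevalonate steps and 10 of 12 in the sterol steps. Those lower on both scales were Acat2, Hmgcs1, Mvk, Pmvk, Mvd, Fdps, Fdft1, Lss, Cyp51, Tm7sf2, Nsdhl and Sc5d, together with Srebf1 and Srebf2, and these 14 kept their calls under every alternative tried.

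Pmvk fell most on the log2(value + 1) scale, from 132, 100.1 and 103 to 27.3, 18.0 and 18.8 normalised FPKM (-2.35 ± 0.16, limma, adjusted p = 7.87e-09). Its mean was 5.23-fold lower, and by the ratio of means the low gene Abcg1 fell further. Cyp51 went from 233, 182 and 198 to 77.7, 68.6 and 68.7 (-1.49 ± 0.10, limma, adjusted p = 1.5e-08). Nsdhl, a dehydrogenase of sterol demethylation, went from 102, 89.6 and 102 to 37.2, 34.8 and 29.8 (-1.51 ± 0.14, limma, adjusted p = 4.53e-07). All 3 genes ended below their unstimulated range. Fdft1 went from 90.1, 82.2 and 89.4 to 37.5, 29.5 and 27.8 (-1.45 ± 0.16, limma, adjusted p = 1.9e-06). Hmgcs1 went from 140.2, 147 and 163 to 66.0, 60.9 and 60.01 (-1.25 ± 0.11, limma, adjusted p = 1.12e-07). Acat2, which makes acetoacetyl-CoA, fell by 1.21 ± 0.16 and Mvk by 1.04 ± 0.17, whereas Fdps (-0.85 ± 0.12), Lss (-0.82 ± 0.12), Sqle (-0.63 ± 0.11) and Msmo1 (-0.53 ± 0.11) fell by less. Sqle and Msmo1 did not pass on the median-centred scale.

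The control genes again did not move as a block. Srebf1 went from 50.2, 51.9 and 49.9 to 26.1, 19.2 and 19.7 normalised FPKM (-1.20 ± 0.20, limma, adjusted p = 0.000129), and Srebf2 from 48.6, 51.6 and 48.1 to 32.6, 25.1 and 26.0 (-0.81 ± 0.13, limma, adjusted p = 9.01e-05). Insig1 went from 82.8, 81.4 and 75.5 to 116, 94.5 and 112 (0.42 ± 0.14, limma, adjusted p = 0.0178). Its groups did not overlap, but the call was lost without PDGF 24 h replicate 2 or without JQ1 plus PDGF 24 h replicate 0 or 2 (adjusted p 0.058 to 0.0619). On the median-centred scale Insig1 was higher by 0.93, and Idi1 (0.42) and Scap (0.48) also passed as higher, although neither passed on the normalised scale (-0.09 ± 0.10 and -0.03 ± 0.13). Insig2 went from 15.9, 18.6 and 24.3 to 8.75, 5.53 and 5.91 (-1.42 ± 0.39, limma, adjusted p = 0.00633), a call absent on the median-centred scale (-0.88, adjusted p = 0.116). Fasn, Lbr, Hsd17b7 and Npc1 did not pass on either scale.

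Whether JQ1 differed in size between the times was tested as an interaction. For 7 members (22.6%) the JQ1 difference was lower at 24 h than at 2 h and for 0 it was higher, against 17.5% and 4.82% of all genes (13 members had an unadjusted p under 0.05). With median centring 6 were lower and 0 higher (16.4% and 13.5% of all genes), and 5 of 30 were lower without Abcg1. Hmgcs1, Pmvk, Idi1, Tm7sf2 and Nsdhl passed on both scales. For Pmvk the JQ1 difference was -1.12 at 2 h and -2.35 at 24 h, a change of -1.22 ± 0.22 (limma, adjusted p = 0.000969). For Nsdhl it was -0.46 and -1.51 (-1.05 ± 0.20, limma, adjusted p = 0.00178), and for Hmgcs1 -0.56 and -1.25 (-0.69 ± 0.15, limma, adjusted p = 0.00348). For Idi1 a JQ1 difference of 0.61 at 2 h was followed by -0.09 at 24 h (-0.70 ± 0.14, limma, adjusted p = 0.00247). For Tm7sf2, a sterol reductase, the values were -0.03 and -1.06 (-1.02 ± 0.30, limma, adjusted p = 0.0224), and this call was lost without PDGF 2 h replicate 0, JQ1 plus PDGF 2 h replicate 1 or JQ1 plus PDGF 24 h replicate 2 (adjusted p 0.0535 to 0.0646). Cyp51 (-0.36 ± 0.15), Fdft1 (-0.06 ± 0.22), Insig1 (-0.40 ± 0.19), Srebf1 (-0.16 ± 0.28) and Srebf2 (0.10 ± 0.18) did not pass, which does not show that JQ1 acted alike at both times.

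The remaining synthesis genes filled in the course between these extremes. Mvd, the decarboxylase that makes the isoprenoid unit, was at 30.0 and 32.5 normalised FPKM in unstimulated cells, 18.7, 32.6 and 24.7 with PDGF at 2 h and 58.4, 45.6 and 56.6 at 24 h. With JQ1 it was at 12.6, 11.8 and 14.04 at 2 h and 28.2, 28.6 and 24.8 at 24 h, below the libraries without JQ1 at the same time. Sc5d, a sterol desaturase, was at 61.3 and 74.9 in unstimulated cells, 68.6 to 86.4 and 104 to 123 with PDGF, and 36.4 to 40.6 and 56.0 to 61.8 with JQ1. Lss, which cyclises the squalene epoxide to lanosterol, was at 49.7 and 47.1, then 37.4 to 49.2 and 51.4 to 56.4 with PDGF, and 20.5 to 24.3 and 28.2 to 31.5 with JQ1. Both genes were separated by JQ1 at each time, and Lss did not pass between unstimulated cells and PDGF at 24 h (0.14 ± 0.13, limma, adjusted p = 0.416).

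Sqle was at 94.1 and 103 normalised FPKM in unstimulated cells, 113 to 129.7 and 123 to 145 with PDGF, and 76.5 to 85.9 and 80.05 to 92.9 with JQ1. Ebp, a sterol isomerase, was at 18.6 and 15.02, then 12.7 to 21.1 and 29.6 to 35.9 with PDGF, and 11.0 to 16.95 and 15.9 to 18.2 with JQ1. JQ1 separated Ebp at 24 h (-0.94 ± 0.19, limma, adjusted p = 0.000606) and not at 2 h, where the ranges overlapped, and the 24 h call did not hold on the median-centred scale (-0.43). Ggps1 was at 4.65 and 6.55, then 4.61 to 6.19 and 8.95 to 10.2 with PDGF, and 3.39 to 4.23 and 5.84 to 6.41 with JQ1. Its JQ1 difference at 24 h was -0.57 ± 0.18 (limma, adjusted p = 0.014), and it passed neither on the median-centred scale (-0.05) nor without JQ1 plus PDGF 24 h replicate 1 (adjusted p = 0.0515). Lbr, a sterol reductase that is also a protein of the nuclear envelope, passed no comparison on the normalised scale, with 15.04 to 24.4 in the libraries without JQ1 and 11.0 to 18.4 in those with it.

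As a block, the 20 synthesis genes summed to 1596 and 1730 normalised FPKM in unstimulated cells. Without the 3 abundant genes Fdps, Msmo1 and Hmgcs1 it was 762 and 821. With PDGF the sum was 2144, 2258 and 2535 at 2 h and 2619, 2272 and 2517 at 24 h, and with JQ1 it was 1591, 1639 and 1591 at 2 h and 1409.9, 1293 and 1256 at 24 h. Without those 3 genes the sum was 841 to 957 with PDGF at 2 h and 1032 to 1204 at 24 h, and 626 to 661 and 493 to 576 with JQ1, so much of the difference at 2 h of PDGF lay in Msmo1 (237 and 279.6 against 697 to 837). As a share of the unnormalised FPKM of all genes they held 0.302 to 0.303% in unstimulated cells, 0.330 to 0.344% and 0.303 to 0.327% with PDGF at 2 h and 24 h, and 0.255 to 0.273% and 0.212 to 0.238% with JQ1 plus PDGF. Every library with JQ1 was below every library without it in this share. The ratio of Insig1 to Insig2 (unnormalised FPKM) was 5.46 and 6.10 in unstimulated cells and 15.6 to 32.9 with PDGF at 2 h. It was 3.08 to 5.52 with PDGF at 24 h and 13.3 to 17.9 with JQ1 plus PDGF at 24 h. With JQ1 at 2 h it was 32.2, 453 and 52.8, where the highest value rests on a low Insig2 value in that library (0.651 on the normalised scale). From normalised FPKM the ratios in these libraries were 32.5, 342 and 53.4.

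**Figure D5:**
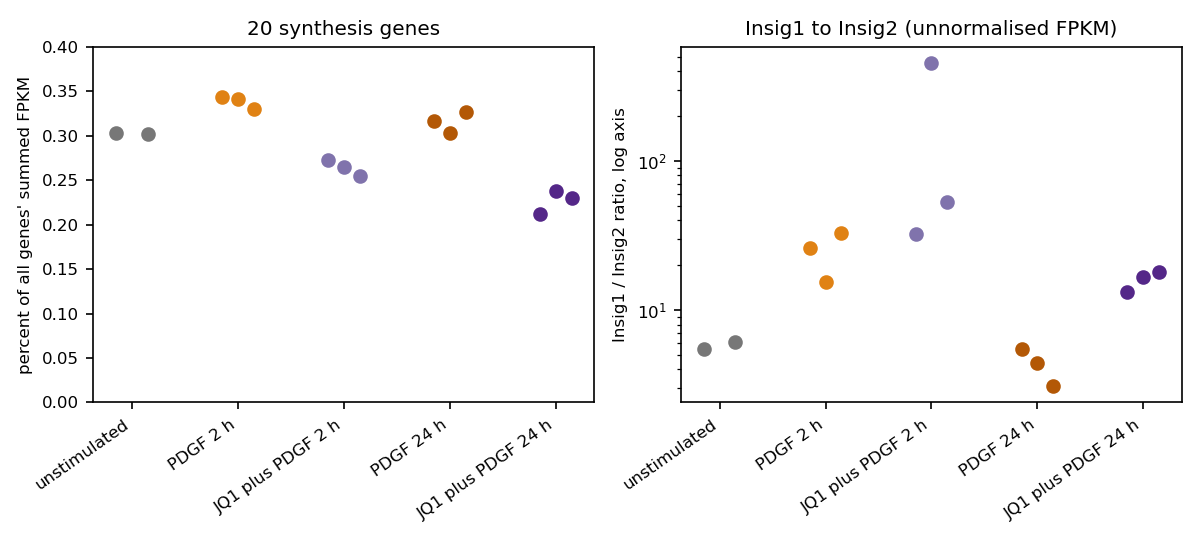
Left, the percent of the summed unnormalised FPKM of all genes that the 20 synthesis genes held in each library. Right, the ratio of Insig1 to Insig2 in unnormalised FPKM on a log axis. Points are libraries, and the share is lowest with JQ1 plus PDGF at 24 h (0.212 to 0.238%).

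The transport genes were described apart from the synthesis genes. Leaving Abcg1 aside, the genes higher after PDGF at 24 h on the normalised scale were Npc1 and Npc2, where 37.7% of all genes were higher. Those lower with JQ1 at 24 h were Stard4, Npc2 and Abca1, where 48.5% of all genes were lower. With median centring only Npc2 still passed after PDGF (14.8% of all genes higher). None of these genes passed with JQ1 at 24 h on that scale (25.8% of all genes lower). Abcg1, a sterol exporter, was at 0.969 and 0.874 normalised FPKM in unstimulated cells, 0.957, 2.12 and 0.987 with PDGF at 2 h and 4.01, 4.25 and 2.97 at 24 h. With JQ1 plus PDGF it was at 0.319, 0.775 and 0.403 at 2 h and 0.949, 0.459 and 0.515 at 24 h, so the PDGF 24 h libraries were the highest. Abca1 at 24 h went from 11.0, 10.9 and 11.5 to 7.56, 5.19 and 7.57 with JQ1 (-0.66 ± 0.20, limma, adjusted p = 0.0114), which did not pass on the median-centred scale (-0.13) or without JQ1 plus PDGF 24 h replicate 1 (adjusted p = 0.0723). Npc2 fell from 537, 468 and 469 to 397, 340.1 and 342 (-0.45 ± 0.10) on the normalised scale only. Stard4 fell by 0.81 ± 0.28 at 24 h, also on that scale only, and not without PDGF 24 h replicate 2 or JQ1 plus PDGF 24 h replicate 1 or 2 (adjusted p 0.059 to 0.0857). Macrophages express ABCA1 and ABCG1 strongly, so leukocyte markers are set beside these genes. The 5 leukocyte markers summed to 13.8 and 17.7 unnormalised FPKM in unstimulated cells, 17.9 to 22.9 and 36.9 to 53.1 with PDGF at 2 h and 24 h, and 6.72 to 11.4 and 9.57 to 17.3 with JQ1. On the normalised scale, which differs from that of the sums, Cd14 was the highest of the 5 markers without JQ1. It was at 48.9 to 72.2 normalised FPKM with PDGF at 24 h and at 3.57 to 5.01 with JQ1. Cd68 went the other way, at 0.213 to 0.949 with PDGF at 24 h and 4.16 to 13.0 with JQ1, and Ptprc, the pan-leukocyte marker, was at an unnormalised 0 in every library. Their part in the transport results was not tested.

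Genes around the pathway that are not members were counted from 5 lists, on the normalised scale unless said otherwise. Beside these counts, the share of all genes higher and lower was 17.7% and 12.7% for PDGF at 2 h, 37.7% and 4.85% for PDGF at 24 h, 7.24% and 34% for JQ1 at 2 h, and 4.61% and 48.5% for JQ1 at 24 h. With median centring those shares were 20.4% and 19.4%, 14.8% and 13.4%, 20.1% and 21.5%, and 23.1% and 25.8%. Of 5 tested genes of SREBP processing and INSIG turnover, 1 was higher (Rnf139, an ER ubiquitin ligase, 0.99 ± 0.20) and 1 lower (Mbtps2, a protease that cleaves SREBP, -1.03 ± 0.29) after PDGF at 2 h, and 1 higher and 0 lower at 24 h. With JQ1, 0 were higher and 2 lower at 2 h (Erlin2, -0.89 ± 0.17) and 0 higher and 3 lower at 24 h. The balance at 24 h turned with median centring, to 2 higher and 0 lower, and at 2 h it was 0 higher and 1 lower. For PDGF that scale gave 1 higher and 3 lower at 2 h and 0 either way at 24 h.

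Of 14 genes of fatty acid supply and desaturation, 2 were higher and 3 lower with PDGF at 2 h (Lpin1, -1.53 ± 0.25), and 7 higher and 0 lower at 24 h (Fads1, a fatty acid desaturase, 1.71 ± 0.23). With JQ1 this list had 3 higher and 5 lower at 2 h and 3 higher and 9 lower at 24 h. Median centring (13 genes tested) gave 2 higher and 4 lower, then 3 and 2, for PDGF, and 4 higher and 4 lower, then 4 and 6, for JQ1. Acly, ATP citrate lyase, which makes cytosolic acetyl-CoA, was higher with JQ1 at 2 h (1.20 ± 0.14), when Fads2 was lower (-1.41 ± 0.17). At 24 h Fads2 (-2.34 ± 0.17) and Fads1 (-2.11 ± 0.20) were lower, and Mid1ip1 changed from -0.73 ± 0.11 at 2 h to 1.15 ± 0.11 at 24 h (interaction 1.88 ± 0.16, limma, adjusted p = 8.27e-07). These 4 genes kept the sign of their JQ1 differences with median centring.

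Of 7 genes of LXR and its targets, 2 were higher and 3 lower with PDGF at 2 h, and 5 higher and 0 lower at 24 h. Arl4c, an LXR target, rose by 3.67 ± 0.21 at 2 h while Abca1 fell, and Rxra, which encodes the partner receptor of LXR, fell by 0.92 ± 0.26. With JQ1 this list had 1 higher and 2 lower at 2 h (Mylip 0.88 ± 0.14, Arl4c -1.76 ± 0.18) and 0 higher and 5 lower at 24 h (Arl4c -2.61 ± 0.18, Rxra -1.40 ± 0.23). Median centring gave 2 higher and 3 lower, then 3 and 0, for PDGF, and 2 higher and 1 lower, then 1 and 3, for JQ1.

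Of 12 tested genes of sterol uptake, storage and movement, 1 was higher and 2 lower with PDGF at 2 h (Soat1, the sterol esterifying enzyme, 1.38 ± 0.16), and 9 higher and 1 lower at 24 h (Lipa, lysosomal acid lipase, 1.53 ± 0.15, and Vldlr, a lipoprotein receptor, -1.08 ± 0.16). With JQ1, 0 were higher and 4 lower at 2 h and 0 higher and 8 lower at 24 h, with Vldlr lowest at both times (-1.10 ± 0.14 and -2.20 ± 0.14). Median centring gave 1 higher and 4 lower, then 5 and 3, for PDGF, and 4 higher and 3 lower, then 2 and 3, for JQ1. Of 12 genes that use mevalonate products in prenylation and dolichol synthesis, 2 were higher and 1 lower with PDGF at 2 h (Nus1 0.63 ± 0.14, Coq2 -0.97 ± 0.21), and 6 higher and 0 lower at 24 h. With JQ1 this list had 1 higher and 6 lower at 2 h and 1 higher and 4 lower at 24 h, where Zmpste24, a prenyl protein protease, fell by 1.19 ± 0.18. That balance turned with median centring, to 4 higher and 2 lower at both times with JQ1, and PDGF gave 2 higher and 1 lower at both times.

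A row named Scd1, which the RefSeq gene table lists as a synonym of the member Scd, is given apart because it was looked up after the other values were seen. Scd1, a stearoyl-CoA desaturase, was at 47.1 and 53.4 normalised FPKM in unstimulated cells and at 36.5, 40.2 and 43.1 with PDGF at 2 h. With PDGF at 24 h it was at 107, 99.4 and 113 (1.07 ± 0.12, limma, adjusted p = 9.98e-06). With JQ1 it was at 24.7, 24.3 and 26.0 at 2 h (-0.65 ± 0.11, limma, adjusted p = 0.000308) and at 34.7, 29.8 and 35.4 at 24 h (-1.65 ± 0.11, limma, adjusted p = 1.07e-08). Fasn, in the same fatty acid branch, went from 67.6 and 79.2 to 125, 110.3 and 132 with PDGF at 24 h and was at 113, 79.0 and 102 with JQ1 (-0.33 ± 0.17, limma, adjusted p = 0.116).

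Some values are less certain because reads may be shared. The RefSeq table lists pseudogenes of Fdps (5), Acat2 (2), Idi1 (1), Cyp51 (1) and Nsdhl (1). There, 9 of 31 members overlap another gene, among them Idi1 with Wdr37, Srebf1 with Rai1, Npc1 with Rmc1, and Insig1 with a long noncoding RNA, and the sources used here do not say whether counting used strand.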

How the data were processed

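Polyadenylated RNA was sequenced in 14 libraries of 5 groups as stranded, 40-base single reads with ERCC spike-in RNA added in proportion to cell number, per the labels' protocols. The submitters' processing notes name HISAT, Cufflinks 2.0.0 and the rat build rn6, and the annotation, normalisation method and use of strand are not given in the sources used here. Per the file headers, the authors deposited FPKM before and after a normalisation, in which an unnormalised 0 takes a value of 0.0885 to 0.111. FPKM keep no read depth, so no counting intervals could be given.

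From these values, log2(normalised FPKM + 1) was fitted with limma 3.58.1 (R 4.3.3) with 5 group means over all 14 libraries (9 residual degrees of freedom) and moderation with a mean trend. Tests covered genes that reached a normalised FPKM of 1 in 2 or more libraries, and p-values were adjusted by the Benjamini-Hochberg method over all 10133 of them. The 6 comparisons were PDGF at 2 h and at 24 h against unstimulated cells, 24 h against 2 h, JQ1 plus PDGF against PDGF at both times, and the interaction of JQ1 with time. The median-centred scale divided unnormalised FPKM by median-ratio size factors (9980 genes tested). The scripts were tested on simulated data. Other pseudocounts, filters, moderation and sets of libraries were tried. All members were described, and up to 3 passing genes per related list and comparison could be named, by the size of their difference. The members and lists were chosen with earlier results of these data known.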

Additional observations from a re-analysis of the deposited data

Results flagged for a closer look

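For 7 sterol genes the JQ1 difference at 24 h differed from that at 2 h by the interaction term of the limma fit over 14 libraries, and in each it was the lower of the pair (adjusted p over all tested genes). The values, 24 h minus 2 h on the log2 scale, were -1.32 ± 0.38 for Dhcr7 (limma, adjusted p = 0.0218), -1.22 ± 0.22 for Pmvk (0.000969), -1.05 ± 0.20 for Nsdhl (0.00178) and -1.02 ± 0.30 for Tm7sf2 (0.0224). They were -0.70 ± 0.14 for Idi1 (limma, adjusted p = 0.00247), -0.69 ± 0.15 for Hmgcs1 (0.00348) and -0.65 ± 0.22 for Acat2 (0.0479). They are 22.6% of the members, against 17.5% of all genes with a lower difference. On the median-centred scale 6 members passed (5 without Abcg1), against 16.4% of all genes, so the count is near the background. Over all genes the median of this difference was -0.22. The calls of Hmgcs1, Pmvk, Idi1 and Nsdhl held under every alternative tried. That of Dhcr7 was lost on the median-centred scale (-1.11, adjusted p = 0.0726), and that of Acat2 there too (-0.46, adjusted p = 0.0572). Leaving out any of 11 libraries ended the Acat2 call (adjusted p 0.0592 to 0.125), and leaving out JQ1 plus PDGF 2 h replicate 1, PDGF 24 h replicate 0 or JQ1 plus PDGF 24 h replicate 1 ended that of Dhcr7 (adjusted p 0.0502 to 0.0551). Tm7sf2 lost its call without any of 3 libraries (adjusted p 0.0535 to 0.0646).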

How the results depend on the processing

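The scale mattered most. On the median-centred scale the members called higher and lower changed from 19 and 0 to 7 and 5 for PDGF 24 h against unstimulated, from 20 and 3 to 13 and 7 for PDGF 24 h against 2 h, and from 1 and 24 to 3 and 15 for JQ1 at 24 h, and the members higher with JQ1 at 2 h went from 3 to 5. The normalised values carry the shift of the median gene and the median-centred values remove it. Among differences called on either scale, these changed sign there: Sqle (-0.024) and Lss (-0.31) for PDGF 24 h against unstimulated, Fdps (-0.049), Sqle (-0.23) and Lss (-0.081) for 24 h against 2 h, Npc2 (0.26) for JQ1 at 2 h, and Idi1 (0.42), Scap (0.48) and Npc2 (0.052) for JQ1 at 24 h. The members lower with PDGF at 2 h went from 5 to 3 with no filter and with only the groups compared in the fit (the cause was not tested).

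Leaving out 1 library at a time gave, for PDGF at 2 h, 4 to 6 members higher and 1 to 5 lower (1 without unstimulated replicate 1), and for PDGF at 24 h, 9 to 21 higher (9 without unstimulated replicate 0) and 0 lower. It gave 17 to 22 higher and 3 to 4 lower for 24 h against 2 h, 2 to 3 higher and 12 to 16 lower for JQ1 at 2 h, 0 to 1 higher and 21 to 26 lower for JQ1 at 24 h, and 0 higher and 5 to 9 lower for the interaction. Where unstimulated cells are left with 1 library, that library is assumed to vary like the other groups. The counts of members and of calls in this section include Abcg1 where it passed. Of 102 calls, 68 held on the median-centred scale, 100 with a pseudocount of 0.1, 98 with no filter, 96 of 96 with a value at least 1 in every library, 92 with only the groups compared, 97 without the mean trend, and 93 when PDGF 2 h replicate 1 was left out together with PDGF 24 h replicate 0. No paired analysis was possible because the columns end in digits that cannot be matched to the letters in the sample titles, and those letters differ between samples with and without JQ1.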
